A study of Mus musculus with 2 samples.

Results

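Numbered Zfp genes are mouse genes whose symbol is Zfp followed by a number only, and most of them encode proteins with C2H2 zinc fingers, small zinc-binding loops that can read DNA. Their RNA was compared between CTCFL-induced and non-induced mouse embryonic stem (ES) cells. Genes were taken from probe sets to which the platform annotation gave a single symbol of this form, without Zfp42, which is a marker of ES cells. They were selected on the measured values themselves: the higher of the induced and non-induced log2 signals had to reach 6.36, the median of all gene values, and the probe set with the highest mean stood for a gene. Of 316 numbered Zfp genes measured, 215 passed, 98 with a number below 500 and 117 with a number of 500 and above, and 101 stayed below this floor. In all, 19938 genes could be named, of which 10697 passed the same floor. Just inside the floor were Zfp941, with a higher value of 6.38, and Zfp469 (6.39), and just outside it were Zfp335 (6.34) and Zfp113 (6.35).

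The study asked how CTCFL, a paralog of the genome organizer CTCF that is normally made in male germ cells, acts when it is present in ES cells. The induced array held RNA of cells that received doxycycline for 3 days and were then sorted for green fluorescent protein (GFP), and the non-induced array held RNA of cells without doxycycline that were not sorted. Both came from the same background, ES cells with the doxycycline-responsive activator rtTA at ROSA26 and a mouse CTCFL-V5-GFP transgene under a tetracycline-responsive element, grown as G418-selected clones with leukemia inhibitory factor on gelatin. There was 1 Affymetrix Mouse Gene 1.0 ST array per group, so no test was possible, no value has an error from replicates, and doxycycline, sorting and CTCFL cannot be told apart. In bulk RNA, fewer cells with a transcript and less of it per cell cannot be told apart either.

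Many numbered Zfp genes belong to the KRAB zinc finger family, which expanded by tandem duplication and lies in clusters on several chromosomes. A KRAB zinc finger protein binds DNA through its array of fingers and recruits the corepressor TRIM28, which brings the histone methyltransferase SETDB1 and heterochromatin proteins to the site. In ES cells this machinery is known for silencing endogenous retroviruses and for keeping methylation at imprinted regions. Other numbered Zfp genes have no KRAB domain and act as transcription factors, RNA-binding proteins or ribosome factors. Which of the 215 proteins hold a KRAB domain was not analysed here.

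A group of 3 genes of a chromosome 4 cluster shows how alike the promoters of family members can be. Their promoter windows, from 250 bases before to 50 after the annotated start, are given 5′ to 3′ from RefSeq on GRCm38.p6, with CG dinucleotides in capitals, because lower genes mostly had promoters with few CG.
Zfp979 (chr4:147642459-147642758, minus strand): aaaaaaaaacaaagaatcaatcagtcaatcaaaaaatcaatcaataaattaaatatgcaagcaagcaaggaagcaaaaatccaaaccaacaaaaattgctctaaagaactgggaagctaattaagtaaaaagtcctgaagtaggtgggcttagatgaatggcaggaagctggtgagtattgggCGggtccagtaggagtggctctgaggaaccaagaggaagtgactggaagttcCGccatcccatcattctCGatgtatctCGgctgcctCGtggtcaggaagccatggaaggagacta
Zfp600 (chr4:146156577-146156876, plus strand): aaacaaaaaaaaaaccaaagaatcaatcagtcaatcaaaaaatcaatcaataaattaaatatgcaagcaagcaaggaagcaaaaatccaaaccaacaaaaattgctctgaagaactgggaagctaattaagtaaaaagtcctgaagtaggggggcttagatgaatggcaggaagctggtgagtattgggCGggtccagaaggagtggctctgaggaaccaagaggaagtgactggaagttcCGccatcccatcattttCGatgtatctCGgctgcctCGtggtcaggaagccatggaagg
Zfp980 (chr4:145670447-145670746, plus strand): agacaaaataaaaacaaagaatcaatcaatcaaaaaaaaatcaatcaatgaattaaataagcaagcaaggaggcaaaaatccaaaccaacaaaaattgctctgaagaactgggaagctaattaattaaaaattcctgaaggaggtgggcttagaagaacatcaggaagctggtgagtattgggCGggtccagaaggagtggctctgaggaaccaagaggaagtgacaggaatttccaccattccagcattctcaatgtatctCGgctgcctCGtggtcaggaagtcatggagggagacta
The windows of Zfp979 and Zfp600 were 94.7% identical over 300 bases, those of Zfp980 and Zfp979 89.7%, and those of Zfp980 and Zfp600 88.3%. They held 5, 5 and 3 CG for Zfp979, Zfp600 and Zfp980, and the log2 differences of these genes, induced minus non-induced, were -1.44, -1.31 and -1.15. Zfp600 has 2 windows, with a mean of 3 CG, and the one closest to that of Zfp979 is printed. The identities are those of the closest windows. All 3 symbols also occur on probe sets that the annotation assigns to several genes, so cross-hybridization among the copies was possible and was not tested. Likeness of promoters does not show likeness of the transcripts that probes read, and transcript sequences were not compared.

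Another 4 windows show the range of promoter sequence and of difference among the genes. Zfp951 had the widest difference, Zfp759 and Zfp457 are cluster mates on chromosome 13 that differed from each other, and Zfp746 stands for promoters rich in CG.
Zfp951 (chr5:104859978-104860277, minus strand): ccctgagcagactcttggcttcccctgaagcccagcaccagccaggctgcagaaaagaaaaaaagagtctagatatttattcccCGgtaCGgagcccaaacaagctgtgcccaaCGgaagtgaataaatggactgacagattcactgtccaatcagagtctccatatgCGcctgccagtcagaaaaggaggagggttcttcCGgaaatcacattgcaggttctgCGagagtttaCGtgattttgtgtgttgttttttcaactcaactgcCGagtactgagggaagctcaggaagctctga
Zfp759 (chr13:67127978-67128277, plus strand): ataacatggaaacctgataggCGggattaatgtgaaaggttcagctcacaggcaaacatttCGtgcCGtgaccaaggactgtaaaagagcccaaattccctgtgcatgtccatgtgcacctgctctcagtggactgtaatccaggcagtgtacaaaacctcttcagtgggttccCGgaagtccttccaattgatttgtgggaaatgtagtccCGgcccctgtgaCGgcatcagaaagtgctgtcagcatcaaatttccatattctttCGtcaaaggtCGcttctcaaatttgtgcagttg
Zfp457 (chr13:67306363-67306662, minus strand): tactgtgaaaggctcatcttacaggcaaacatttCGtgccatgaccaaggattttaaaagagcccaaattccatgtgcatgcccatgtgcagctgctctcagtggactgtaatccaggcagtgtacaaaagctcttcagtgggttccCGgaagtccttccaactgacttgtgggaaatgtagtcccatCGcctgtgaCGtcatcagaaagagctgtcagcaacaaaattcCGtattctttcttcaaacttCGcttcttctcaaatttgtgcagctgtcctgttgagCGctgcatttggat
Zfp746 (chr6:48086544-48086843, minus strand): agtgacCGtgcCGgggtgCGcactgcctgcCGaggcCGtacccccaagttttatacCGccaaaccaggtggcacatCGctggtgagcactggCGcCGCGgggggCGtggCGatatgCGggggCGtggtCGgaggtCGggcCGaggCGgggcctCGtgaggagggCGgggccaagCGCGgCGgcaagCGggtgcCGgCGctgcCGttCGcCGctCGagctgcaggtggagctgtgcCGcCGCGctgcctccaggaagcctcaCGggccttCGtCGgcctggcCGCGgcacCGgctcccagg
The first window of Zfp951 held 8 CG, that of Zfp759 8, that of Zfp457 7 and that of Zfp746 39. The windows of Zfp759 and Zfp457 were 74.3% identical, yet Zfp759 differed by -1.36 and Zfp457 by 0.01.

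The array of induced cells had a Ctcfl signal of 9.44 against 5.99 in non-induced cells, which matched the labels. Ctcf was at 8.66 in induced and 8.93 in non-induced cells. ES cell identity was checked on 12 markers of naive pluripotency, which all passed the floor with a median difference of -0.01, and Pou5f1, the central pluripotency factor, was at 11.98 in induced and 11.96 in non-induced cells. Within this list Dppa3 was at 7.16 in induced and 8.99 in non-induced cells (-1.83), Zfp42 had a difference of -0.46, Tfcp2l1 of 0.49 and Tbx3 of 0.53. Among 13 fibroblast and mesenchyme markers 12 were above 0, with a median of 0.42 and a summed linear signal of 4455 in induced and 3797 in non-induced cells, and Acta2 and Tagln were below the floor. Among 10 endoderm markers 7 were above 0, with a median of 0.26 and sums of 7679 in induced and 4782 in non-induced cells, and Dab2 and Sox17 were below the floor. Without Apoe these sums were 1123 in induced and 940.3 in non-induced cells, and Foxa2 had a difference of -0.85. For comparison, 53.4% of all genes at or above the floor were below 0. Genes at or above the floor, other than the Zfp genes, with a mean signal below 7 had a median of 0.12. Of those dim genes 38.8% were below 0, and several markers, such as Col3a1 and Loxl1, were as dim. How far the marker differences exceed this background was not tested. The part of these marker differences in the values of the Zfp genes was not tested.

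The numbered Zfp genes were mostly lower in induced cells. Their median log2 signal was 6.86 in induced and 7.18 in non-induced cells, with a median difference of -0.26 and quartiles of -0.70 and 0.05. The other 10482 genes at or above the floor had a median difference of -0.02. The median of the Zfp genes was below 0 under each scaling tried. Of the 215 Zfp genes 151 (70.2%) were below 0, against 53.4% of all genes at or above the floor. By a difference of log2 1 or more, 29 (13.5%) were lower, against a background of 1.79%, and 0 were higher, against 0.477%. After adding 32 to each linear signal, which shrinks differences of dim genes, 14 of the 29 were lower by this size, against 1.01% of all genes. At the smaller size of log2 0.58, 64 were lower, against 8.45% of all genes, and 4 were higher, against 5.31%. The 29 genes made up 15.2% of the 191 genes that were lower by log2 1 or more, while numbered Zfp genes were 2.01% of the genes at or above the floor. The family was not lower throughout, as 80 of the 215 lay within 0.25 of 0.

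The floor was read from the same arrays, so a gene that passed on 1 array only had to differ in that direction. By the non-induced array alone 41 genes passed, of which 13 were lower by log2 1 or more, and 14 passed by the induced array alone. The remaining 160 passed on both arrays, and among them the median difference was -0.18 with 16 lower. The median and share over all genes that passed on both arrays, or on 1 array only, were not counted. These counts thus have no like background. Without any floor the median over 316 genes was -0.21, with 209 (66.1%) below 0 and 33 (10.4%) lower. Over all 19938 named genes without a floor the median was 0.01, with 48.6% below 0 and 1.49% lower. The 101 genes below the floor had a median of -0.10, and 4 of them (3.96%) were lower, with Zfp442 at 4.14 in induced and 5.79 in non-induced cells. The share over all genes below the floor was not counted.

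**Figure D1:**
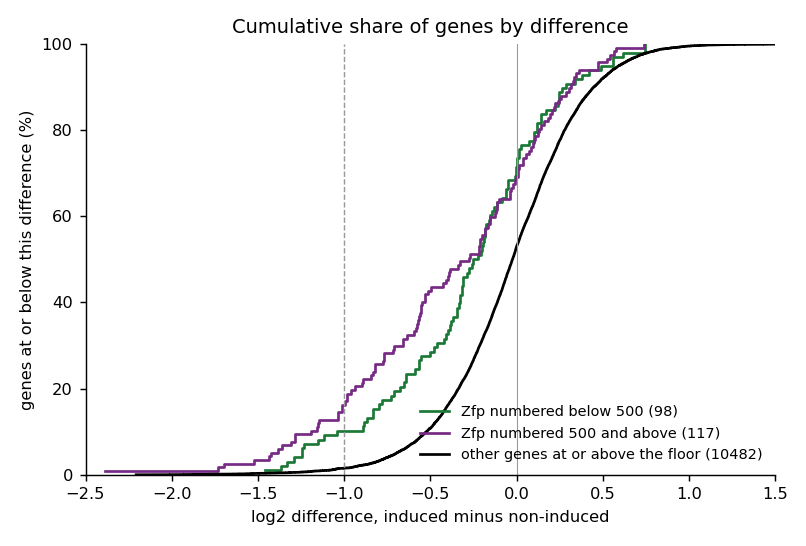
Cumulative share of genes (y axis, percent) at or below each log2 difference, induced minus non-induced (x axis), for Zfp genes numbered 500 and above (purple, 117), Zfp genes numbered below 500 (green, 98) and other genes at or above the floor (black, 10482). Both Zfp curves lie left of the other genes over most of the range, and at the dashed line of -1 they hold 16.2% of the higher-numbered and 10.2% of the lower-numbered genes.

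The classes of symbol number were close in their medians. Genes numbered 500 and above had a median difference of -0.28, and genes numbered below 500 had -0.24, so the class medians were 0.04 apart. Of the higher-numbered genes 81 were below 0 and 19 (16.2%) were lower by log2 1 or more. Of the lower-numbered genes 70 were below 0 and 10 (10.2%) were lower by this size. The quartiles were -0.82 and 0.07 in the higher-numbered and -0.56 and 0.01 in the lower-numbered class. The order of the class medians turned with the dividing number: the upper class was higher by 0.081 when the genes were divided at 300 and lower, with a difference of -0.36, when they were divided at 700.

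Within the upper class the genes with the highest numbers had the lowest median. The 25 genes numbered 900 to 999 had a median of -0.83, and 8 of them were lower by log2 1 or more. Genes numbered 500 to 599, by contrast, had a median of 0.03 over 19 genes with 0 lower. Those numbered 600 to 699 had -0.22 over 28 genes with 3 lower, those numbered 700 to 799 -0.01 over 27 with 6 lower, and those numbered 800 to 899 -0.45 over 18 with 2 lower. Below 500, the medians varied between -0.48 over 16 genes numbered 100 to 199 and -0.11 over 21 numbered 300 to 399. Without the symbols numbered 900 and above, an alternative chosen after seeing the data, the median of the upper class was -0.16 with 11 lower, and it lay 0.078 above that of the lower class.

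**Figure D2:**
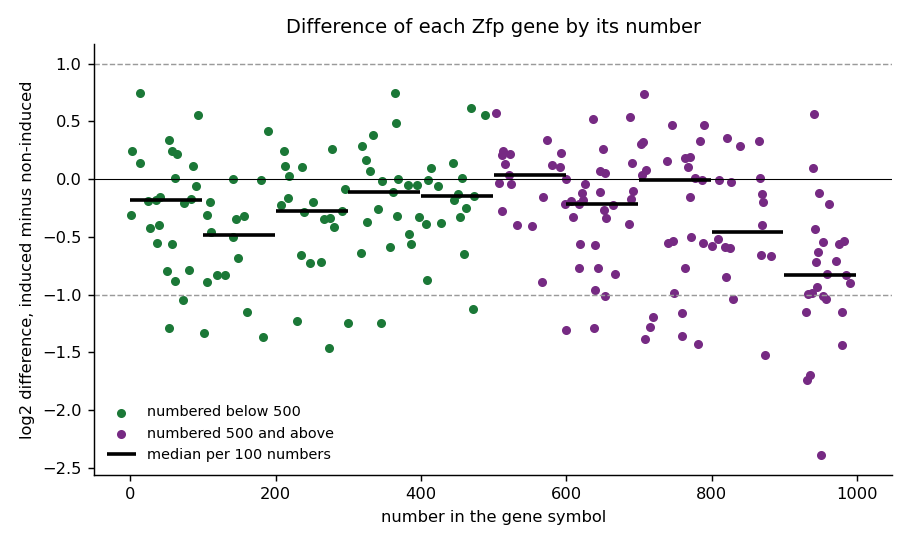
Log2 difference, induced minus non-induced (y axis), of each of the 215 Zfp genes against the number in its symbol (x axis), purple for 500 and above and green below 500, with black lines at the median of each 100 numbers and dashed lines at 1 and -1. The median of the genes numbered 900 to 999 is lowest at -0.83, and no gene lies above 1.

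Among the genes with the widest differences, Zfp951 had a log2 signal of 6.48 in induced and 8.87 in non-induced cells, a difference of -2.39. Zfp931 was at 8.04 in induced and 9.77 in non-induced cells (-1.73, 3.33-fold lower). Zfp935 was at 5.94 in induced and 7.64 in non-induced cells (-1.70), so that its induced value was below the floor. Both Zfp931 and Zfp935 have symbols that also occur on shared probe sets.

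Some of the lower genes were read by bright probe sets. Zfp979 stood at 9.05 in induced and 10.49 in non-induced cells (-1.44, 2.71-fold lower). Zfp781 stood at 9.20 in induced and 10.63 in non-induced cells (-1.43, 2.69-fold lower). These signals were well above the floor on both arrays. The induced signal was below it for Zfp873, which was at 5.63 in induced and 7.15 in non-induced cells (-1.52), and for Zfp273, at 6.06 in induced and 7.52 in non-induced cells (-1.46).

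The next genes had differences between -1.38 and -1.28. Zfp759 had 6.86 in induced and 8.22 in non-induced cells, Zfp101 had 6.70 in induced and 8.03 in non-induced cells, and Zfp600 had 7.08 in induced and 8.38 in non-induced cells. Zfp638, which encodes a large nuclear protein that binds nucleic acids, had 8.27 in induced and 9.56 in non-induced cells (-1.29). Dim in induced cells, and below the floor there, were Zfp182 (6.08 in induced, 7.44 in non-induced cells), Zfp708 (5.55 in induced, 6.93 in non-induced cells), Zfp54 (5.20 in induced, 6.50 in non-induced cells) and Zfp715 (5.37 in induced, 6.66 in non-induced cells). After adding 32 to each linear signal, 15 of the 29 genes no longer reached log2 1, among them Zfp708 (-0.97), Zfp54 (-0.83) and Zfp715 (-0.86). The other 14 genes lower by log2 1 or more had differences of -1.24 to -1.01, among them Zfp830, a factor of pre-mRNA processing, at 6.38 in induced and 7.42 in non-induced cells (-1.04, and -0.82 after this addition).

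**Figure D3:**
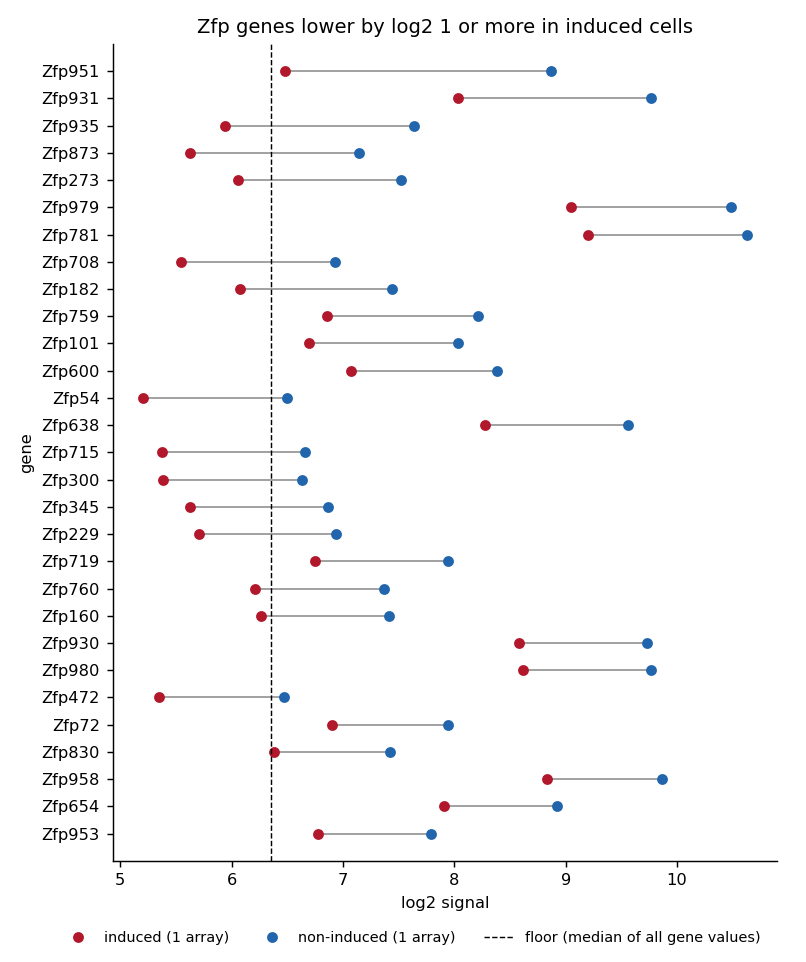
Log2 signal (x axis) of the 29 Zfp genes (rows) that were lower by log2 1 or more, with the induced array in red and the non-induced array in blue (1 array each) and the floor of 6.36 as a dashed line. Zfp951 has the widest gap, 6.48 in induced and 8.87 in non-induced cells, and 13 genes have an induced value below the floor.

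In the other direction differences were smaller. Zfp14 was at 6.42 in induced and 5.67 in non-induced cells (0.75). Zfp365, whose product acts in neurons and in genome stability, was at 6.78 in induced and 6.04 in non-induced cells (0.74), and Zfp707 was at 6.83 in induced and 6.09 in non-induced cells (0.74). All 3 were below the floor in non-induced cells. Zfp469 (0.62), Zfp503 (0.57), a developmental regulator of the striatum, Zfp941 (0.56) and Zfp488 (0.56), a factor of oligodendrocytes, also passed through the induced array only. Zfp93 was above the floor on both arrays, at 7.22 in induced and 6.66 in non-induced cells.

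Signals of different probe sets do not measure relative amounts of RNA, so the brightest probe sets are given only to show where the array read strongly. Zfp971 was at 10.90 in induced and 11.61 in non-induced cells (-0.71). Zfp57 was at 11.04 in induced and 10.79 in non-induced cells (0.24), and Zfp330, which encodes a nucleolar protein, was at 10.64 in induced and 10.57 in non-induced cells (0.07). The 15 Zfp genes with a mean signal of 9 or more had a median difference of -0.90, and 5 of them (33.3%) were lower by log2 1 or more. The 1931 other genes at this level had a median of -0.07, with 2.49% lower. Among the 15, the symbols of Zfp971, Zfp991, Zfp979, Zfp640 and Zfp980 also occur on shared probe sets, and their differences were -0.71 to -1.44. At a mean below 7 the medians were -0.27 for 110 Zfp genes and 0.12 for 3371 other genes. Between 7 and 8 they were -0.16 for 65 Zfp genes and -0.06 for other genes, and between 8 and 9 they were -0.31 for 25 Zfp genes and -0.10 for other genes. The median of the Zfp genes was thus below that of other genes in each of the 4 ranges of signal.

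By role, regulators of imprints and of Igf2 were close to their non-induced level. Zfp57, which binds methylated imprinting control regions, had the small positive difference given above. Zfp445, which acts with it, was at 8.03 in induced and 8.21 in non-induced cells (-0.18). Zfp568, the repressor of a placental Igf2 transcript, was at 8.07 in induced and 8.22 in non-induced cells (-0.16).

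Among 4 measured genes with known retroelement targets the median was -0.55. Of these 3 passed the floor and 1 was lower by log2 1 or more, beside a background of 1.79%. That gene was Zfp708, which binds a class of retroviral repeats, with the values given above. Zfp809, which silences murine leukemia virus and related proviruses, was at 7.23 in induced and 7.74 in non-induced cells (-0.51). Zfp819 was at 6.15 in induced and 6.73 in non-induced cells (-0.58), and Zfp92 was below the floor (0.57). Zfp932 was read only by probe sets shared with other genes, with differences of -1.01 and -0.76 on those shared with Gm15446 and -0.69 and -0.64 on those shared with 4 further genes.

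Factors linked to the ES cell state had a median of -0.16 over 7 genes. Of these 0 were past log2 1, beside backgrounds of 1.79% lower and 0.477% higher. Zfp131 was at 6.65 in induced and 7.48 in non-induced cells (-0.83). Zfp281, which interacts with pluripotency factors, was at 9.25 in induced and 9.66 in non-induced cells (-0.41), and Zfp706, whose loss delays differentiation, was at 9.91 in induced and 9.60 in non-induced cells (0.32). Zfp217 (-0.16), Zfp219 (0.02), Zfp296 (-0.08) and Zfp462 (-0.25) had narrower differences.

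Genes of neural and mesodermal development, where 6 of 9 passed the floor, had a median of 0.13 over all 9. Zfp703 was at 7.84 in induced and 7.54 in non-induced cells (0.30), while Zfp521 (0.03) and Zfp423 (-0.06), partners of early B cell factors, were close to 0, as was Zfp516 (0.13). Of germ line genes Zfp37 was at 6.01 in induced and 6.56 in non-induced cells (-0.55) and Zfp35 at 7.30 in induced and 7.48 in non-induced cells (-0.18).

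RNA and ribosome factors had a median of -0.16 over 8 genes, of which Zfp36 (0.45) was below the floor. Zfp638 was the gene of this list past log2 1. Zfp326, a splicing factor, differed by -0.37, and Zfp106, an RNA-binding protein, by -0.31. Zfp598, a ubiquitin ligase of stalled ribosomes, differed by -0.21. The ribosome assembly factors Zfp622 and Zfp593 differed by -0.12 and 0.22, and Zfp622 was 0.02 after a second quantile normalization. Chromatin and mitosis cofactors had a median of -0.28 over 8 genes, with 7 below 0, beside 53.4% of all genes at or above the floor. Among these 8, Zfp711 (-0.96) was below the floor. Zfp644, a partner of the histone methyltransferases G9a and GLP, was at 8.02 in induced and 8.80 in non-induced cells (-0.77), and Zfp687 (-0.39), Zfp609 (-0.33) and Zfp207 (-0.23), a spindle assembly factor, had smaller differences.

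The corepressor machinery that KRAB zinc finger proteins use was examined as a list of 29 genes, of which 26 were measured alone and passed the floor. Of these 22 were below 0 with a median of -0.15, beside 53.4% of all genes at or above the floor. The other 4 were Wiz (0.27), Kdm1a (0.19), Daxx (0.17) and Cbx1 (0.05). In either direction 0 were past log2 1, beside backgrounds of 1.79% lower and 0.477% higher. Genes other than the Zfp genes had a median of -0.06 at a mean signal between 7 and 8. Theirs was -0.10 between 8 and 9, and -0.07 at 9 or more. How far the list differs from this background was not tested. Trim28 was at 11.29 in induced and 11.42 in non-induced cells (-0.13) and Setdb1 at 8.36 in induced and 8.52 in non-induced cells (-0.16). The widest difference was that of Morc3, a chromatin ATPase that takes part in retroviral silencing, at 8.29 in induced and 9.21 in non-induced cells (-0.92). Dnmt3l, the cofactor of de novo DNA methylation, was at 8.80 in induced and 9.64 in non-induced cells (-0.84).

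Other zinc finger families at or above the floor had medians on both sides of that of the numbered Zfp genes (-0.26). Zfp genes whose number is followed by a letter had a median log2 signal of 7.02 in induced and 7.41 in non-induced cells and a median difference of -0.39 over 17 genes, with 15 below 0, 5 lower by log2 0.58 or more and 1 lower by log2 1 or more. Zmym genes, which encode zinc fingers of the MYM type, had -0.35 over 6 genes. Among 30 Zbtb genes, whose proteins pair zinc fingers with a BTB domain, the median was -0.05. Among 11 Zscan and Zkscan genes, whose proteins carry a SCAN domain, it was -0.29. Zc3h genes, which encode CCCH fingers of RNA-binding proteins, had -0.17 over 13 genes, and Klf genes had -0.06 over 15. The families of Zmym, Zbtb, Zscan and Zkscan, Zc3h and Klf genes held 0 genes lower by log2 1 or more, beside a background of 1.79%, in lists of 6 to 30 genes. The difference between the families was not tested, since there was 1 array per group.

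The position of the genes was taken from RefSeq on GRCm38.p6, in which all but 1 of the 215 (Zfp640) had a place. They lay on 19 chromosomes, and on 17 of these their median was below that of the other genes, the exceptions being chromosomes 12 and 14 with 4 Zfp genes each. On chromosome 17 the medians were -0.72 for 25 Zfp genes and 0.00 for other genes, and on chromosome 13 they were -0.62 for 18 Zfp genes and -0.16 for other genes. Chromosome 4 had -0.53 over 15 Zfp genes and -0.01 over other genes. Chromosome 7, which held 52 of the genes, had only -0.10 against 0.04 for other genes, with 2 Zfp genes lower by log2 1 or more. Together chromosomes 4, 13 and 17 carried 58 Zfp genes and 15 of the 29 lower ones.

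Local grouping was described in 2 ways. Among the 4 nearest protein-coding genes, 2 on each side, 88 Zfp genes had 2 or more zinc finger genes, and their median difference was -0.41 with 13 lower by log2 1 or more. The 126 genes with 0 or 1 such neighbour had a median of -0.19 with 16 lower, so lower genes occurred inside and outside groups. Other genes next to Zfp genes numbered 260 and had a median of 0.01, with 4 (1.54%) lower. Next to the lower Zfp genes there were 24 others with a median of 0.07. Of these 3 (12.5%) were lower, beside a background of 1.79%: 6720489N17Rik on chromosome 13 (-1.53), Gm10033 on chromosome 8 (-1.51) and 4930453N24Rik on chromosome 16 (-1.26). Zinc finger genes were recognized by the start of their symbol only. Genes with Rik or Gm names, such as these 3, can thus be zinc finger genes counted as others, which was not checked.

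Runs of 5 or more zinc finger genes with at most 3 other genes in between were taken as clusters. Those that held any of the 215 genes numbered 17, with 77 of the genes in all. In the chromosome 4 cluster from Zfp990 to Zfp933 all 7 Zfp genes at or above the floor were below 0, with a median of -0.997 and a range of -1.44 to -0.53. All of them but Zfp933 have symbols that also occur on probe sets assigned to several genes. Their values may thus not be separate readings, which was not tested. Beside the 3 genes whose promoters are printed above, Zfp991 was at 9.39 in induced and 10.29 in non-induced cells (-0.90). The 5 other genes in or beside this cluster had a median of 0.10 and 0 were lower.

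The chromosome 13 cluster from Zfp712 to Zfp273 was mixed. Of its 10 genes 4 were lower by log2 1 or more, Zfp273, Zfp708, Zfp759 and Zfp953, while Zfp457 (0.01), Zfp87 (0.12) and Zfp738 (0.16) were above 0, and the median was -0.81. For Zfp738 the value depended on the probe set: 2 dimmer probe sets of the gene gave -1.31 and -1.55. In the chromosome 17 cluster from Zfp677 to Zfp40, 10 of 11 genes were below 0 with a median of -0.80, and 3 were lower by log2 1 or more, while Zfp53 was at 6.52 in induced and 6.18 in non-induced cells (0.34).

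Clusters on chromosome 7 differed from these. From Zfp84 to Zfp146 the 10 genes had a median of -0.17, with 0 lower by log2 1 or more, and ranged from -0.89 for Zfp566 to 0.75 for Zfp14. From Zfp553 to Zfp689 the 7 genes had a median of 0.11, and 3 were below 0. Since a cluster shares sequence among its genes, its members are not independent of each other.

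**Figure D4:**
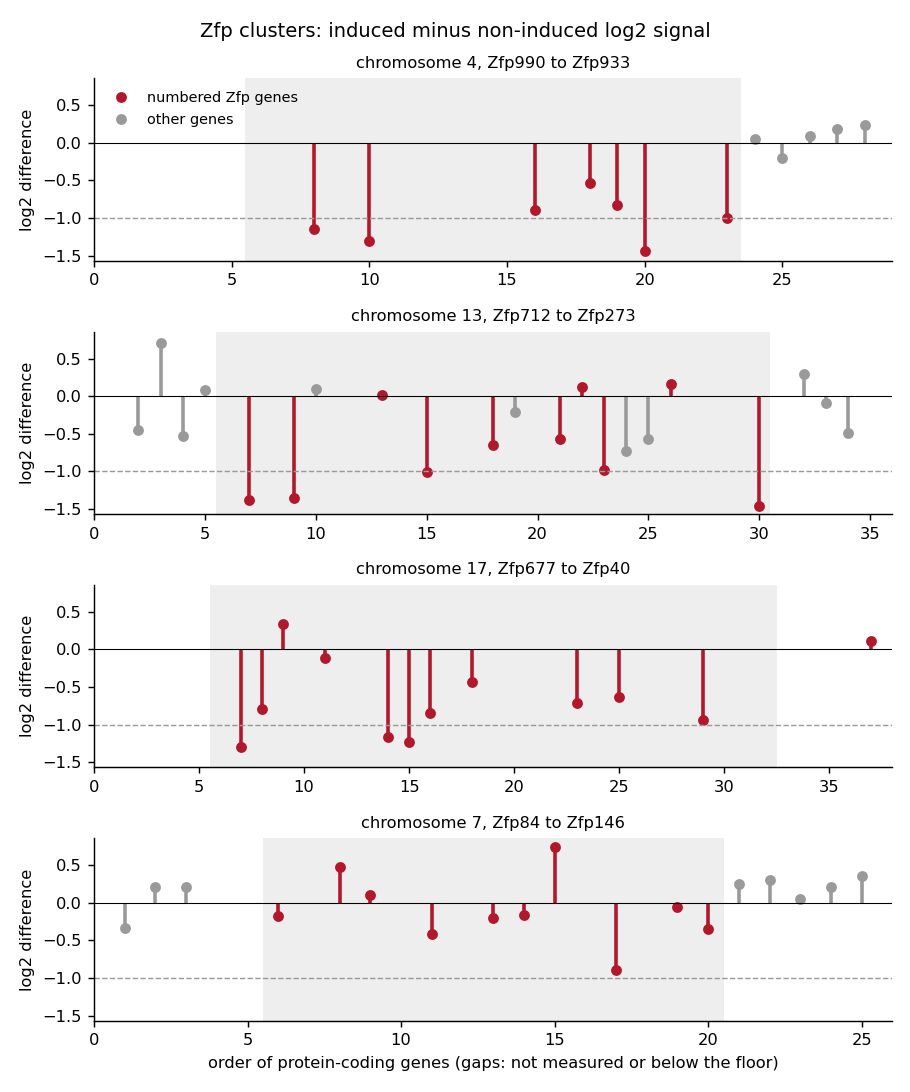
Log2 difference, induced minus non-induced (y axis), in the order of protein-coding genes (x axis) through 4 zinc finger clusters (shaded) and 5 genes on each side, with numbered Zfp genes in red, other genes in grey and a dashed line at -1. All 7 red points of the chromosome 4 cluster lie below 0, whereas the chromosome 7 cluster has a median of -0.17. Of those 7 genes, all but Zfp933 have symbols that also occur on probe sets assigned to several genes.

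Promoter windows of RefSeq were found for 174 of the 215 genes (80.9%), and CG counts were averaged where a gene had several. The median count was 15 for Zfp genes, 8.25 for the 26 lower Zfp genes with a window and 21 for other genes. Of 47 Zfp genes with fewer than 10 CG, 15 (31.9%) were lower by log2 1 or more and the median was -0.66. In other genes with such windows 1.86% were lower and the median was 0.11. With 10 to fewer than 20 CG, 10 of 69 Zfp genes were lower with a median of -0.28, against 1.34% of other genes. With 20 or more, 1 of 58 Zfp genes (1.72%) was lower with a median of -0.22, against 1.21% of other genes.

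Thus 25 of the 26 lower genes with a window had fewer than 20 CG, as seen above in the windows of Zfp979, Zfp600 and Zfp951, and Zfp830 was the exception with 24. Most Zfp genes had few CG as well: of all 174 with a window, 47 had fewer than 10 and 69 had 10 to fewer than 20. Across Zfp genes the Spearman rho of the difference and the CG count was 0.33 (n = 174), 0.46 for those numbered 500 and above and 0.12 for those below 500. In other genes it was -0.11. These coefficients describe genes on the same pair of arrays, which are not independent replicates, and cluster copies share promoter sequence. Low CG alone did not mark a lower gene, as Zfp457 had 7 CG and a difference of 0.01.

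**Figure D5:**
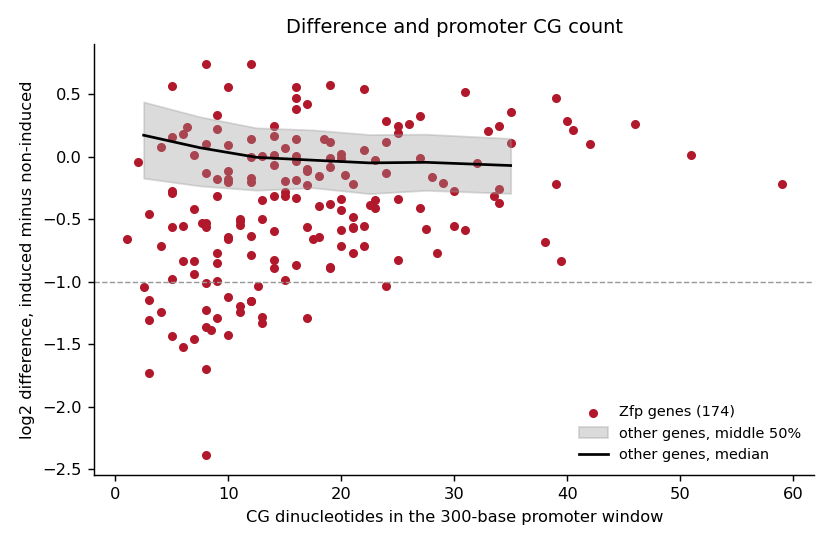
Log2 difference, induced minus non-induced (y axis), of 174 Zfp genes (red points) against the number of CG dinucleotides in the 300-base promoter window (x axis), with the median (black line) and middle 50% (grey band) of other genes and a dashed line at -1. Of the Zfp genes at or below -1, 25 of 26 have fewer than 20 CG, while the line of other genes runs close to 0. Of all 174 Zfp genes, 47 have fewer than 10 CG and 69 have 10 to fewer than 20.

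The motif AGGNGGC, a part of the CTCF core motif, was searched on both strands of each window, where N is any base. It occurred in 25.3% of the Zfp genes with a window, in 45.9% of other genes and in 29.4% of all promoter windows. The median difference was -0.28 for 44 Zfp genes with a match and -0.36 for 130 without. Of the windows printed above, those of Zfp980 and Zfp746 had a match. A match describes letters in the window and says nothing of binding.

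Pairs of promoters over 80% identical numbered 12. Beside the chromosome 4 genes they included Zfp764 and Zfp747 on chromosome 7, which were 86.0% identical and differed in sign, Zfp764 at 7.78 in induced and 7.60 in non-induced cells (0.18) and Zfp747 at 7.03 in induced and 7.57 in non-induced cells (-0.53).

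Likeness between transcripts, which was not measured here, can affect what a probe set reads. Probe sets that the annotation assigns to several genes including a numbered Zfp gene were not used for the counts above, and 33 of 39 reached the floor. Of these 31 were below 0, with a median of -0.61 and 3 lower by log2 1 or more, whereas the 832 probe sets assigned to several genes of any kind that reached the floor had a median of -0.02. The set with the widest difference, listed for Zfp808, Gm5141 and Zfp934, was at 8.51 in induced and 9.77 in non-induced cells (-1.27). Among the 215 genes, 17 had a symbol that also occurs on such sets, with a median of -0.80 and 5 lower. The other 198 had a median of -0.21 and 24 lower, and without those 17 genes, an alternative chosen after seeing the data, the median of the higher-numbered class lay 0.015 above that of the lower-numbered class.

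Of the 215 genes 11 had more than 1 probe set. Zfp640 gave -0.96, -0.96 and -1.20 from 3 sets, and Zfp985 gave -0.83, -0.79 and -0.87. Both symbols also occur on probe sets assigned to several genes, so cross-hybridization was possible and was not tested. Zfp141 gave -0.50 and -0.52. Apart from Zfp738, the sets disagreed in sign for Zfp664, at -0.22 in the brighter and 0.33 in the dimmer set, and for Zfp395, at -0.05 in the brighter and 0.16 in the dimmer set.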

How the data were processed

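Groups were taken from the sample labels, 1 array of induced and 1 of non-induced cells, each from 300 ng of RNA. The authors deposited 1 value per probe set and array, obtained by RMA, a method that usually subtracts background, equalizes quantiles across arrays and combines the probes of a set. That the deposited values are log2 was inferred from their range (1.36 to 14.5) and from the method. The columns were not exactly equal in distribution, with medians over genes of 6.40 in induced and 6.30 in non-induced cells and gaps of up to 0.23 at the same rank. It compresses differences of dim genes. For its version and the build of the array annotation, nothing is given in the sources used here. Depth does not apply to arrays, and their number limits the precision.

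Of 35557 probe sets 21789 had 1 symbol, 1621 several and 12147 none, and 21698 were matched by gene identifier to RefSeq (GRCm38.p6). The probe set with the highest mean represented a gene. Differences are induced minus non-induced, and sizes of log2 1 and 0.58 were counted. Named genes were those with the 15 widest negative and 8 widest positive differences, those of the role lists, the 5 with the highest mean in each number class, those next to the floor and up to 5 corepressor genes. The other genes named were chosen after their values were seen. Members and lists were chosen with earlier results of these data known. Alternatives were centring, a lowess trend (fraction 0.3), quantile normalization, an offset of 32, the mean of probe sets, other floors, a level range, other sizes and other dividing numbers. The floor on the mean of both arrays and the left-out genes were added after seeing the data. Protein features and protein identity were not used here. Only the call of genes lower by log2 1 or more was tested on simulated data. The shifts put in were larger than this size, in genes brighter than most of the Zfp genes. The other steps were not tested in this way. Python 3.11.15, numpy 2.4.6, pandas 2.3.3, statsmodels 0.14.6, edlib 1.3.9.post1 and matplotlib 3.10.9 were used.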

Additional observations from a re-analysis of the deposited data

How the results depend on the processing

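The median difference of the 215 Zfp genes was below 0 under every alternative run, between -0.37 and -0.17, and 0 were higher by log2 1 or more except at the size of log2 0.58. Centring each array put the median of all genes at or above the floor at -0.13, against -0.03 as deposited, and gave medians of -0.37 for the Zfp genes and -0.43 for those numbered 500 and above. All 29 lower genes were kept by centring, 25 by removal of the trend on level, 25 by quantile normalization and 14 by the offset of 32, which left 11 lower genes numbered 500 and above and 3 below 500, beside a background of 1.01%. With a floor at the 75th percentile, 67 genes remained, 53 below 0 and 15 lower, 2 of them numbered below 500, with a median of -0.58 for the upper class and class medians -0.33 apart. With the mean level limited to between the floor and 8, 98 of 149 were below 0 and 14 were lower, 9 in the upper and 5 in the lower class, with an upper median of -0.15 and class medians 0.024 apart with the upper class higher. At log2 0.58, 64 were lower (40 in the upper, 24 in the lower class) and 4 higher. Divided at 300 the class medians were 0.081 apart with the upper class higher, and divided at 700 they were -0.36 apart with an upper median of -0.55. Of alternatives chosen after seeing the data, a floor on the mean of both arrays left 5 lower genes numbered below 500, leaving out genes on shared probe sets put the classes 0.015 apart, and leaving out symbols numbered 900 and above put them 0.078 apart (the upper class higher in both), with an upper median of -0.16 and 11 lower. Fewer genes entered under the stricter floors and left-out sets. For the other alternatives the cause was not tested. Splits by protein motif and by protein identity were not run. No paired analysis was possible because each group had 1 array. Signals near the floor limit the dimmest genes, for which RMA compresses differences.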

Other observations

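Zdhhc genes, which encode palmitoyltransferases and share only the initial of the symbol, had a median difference of -0.08 over 17 genes. Protein-coding genes within 1 Mb numbered 38 in the median around the numbered Zfp genes and 29 around other genes, and the Spearman rho of this number and the difference was 0.14 across the Zfp genes and 0.19 across other genes, which share the same 2 arrays.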
